A study of Strongylocentrotus purpuratus with 8 samples.

Results

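The curated transcription factor panel is a set of sea urchin gene models for transcription factors and their cofactors, present on the array under one common name prefix. The array holds 178 targets with that prefix. The panel leaves out 25 of them, which are forkhead and Ets family genes, Sp-Trx, and genes whose names begin with Gata, Bra, eve, gcm or blim. This gives 153 members of the 6414 targets on the array, and 128 of the 153 were bright enough to be tested. Members were chosen by name alone, with no measured value.

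Strongylocentrotus purpuratus, the purple sea urchin, supplied the RNA, from hatched blastulae raised in filtered seawater at 15 °C to 18 hours after fertilization. Zygotes of 4 cultures, each from its own pair of wild, outbred parents, were injected with a morpholino that blocks splicing of SpRunt-1 RNA. Morpholinos are oligonucleotide analogues that pair with a chosen RNA, and SpRunt-1 encodes a DNA-binding protein of the Runx family. Each morphant sample held 3600 embryos, and about 14400 uninjected embryos of the same cultures gave 1 pooled control RNA. Each morphant RNA was hybridised against that pool on 2 two-colour arrays with the dyes exchanged, which gives 8 arrays. The 2 arrays of a culture were averaged into 1 log2 ratio of morphant over control, so that n = 4 cultures.

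Transcription factors bind short DNA sequences beside genes and raise or lower their transcription. In the sea urchin blastula, networks of such factors set up the skeletogenic cells, the endoderm and mesoderm, the oral and aboral ectoderm and the neurogenic apical plate. Runx proteins act in these embryos as context-dependent activators or repressors, and in many animals they balance cell proliferation against differentiation.

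Some properties of the design bear on every value. The pool has no spread of its own, so an error here is the spread between 4 morphant samples. A culture's ratio holds the effect of the injection and that culture's own difference from the pool, and these cannot be told apart. No embryos injected with a control oligonucleotide were used here, so the morpholino's sequence and the injection itself cannot be told apart. The RNA is from whole embryos, so fewer cells of a type and less RNA per cell cannot be told apart. All arrays lay on 1 slide and share 1 scan time.

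The targeted gene, Runt, was not clearly lower. Its brighter probe gave log2 ratios of −0.21, −0.54, −0.04 and 0.09 in cultures 1 to 4, a mean of −0.18 ± 0.27 (SD, n = 4, limma adjusted p = 0.345). The other probe gave −0.27, −0.27, −0.12 and −0.11. A splice-blocking morpholino changes how a transcript is spliced and need not lower the amount that a probe detects, so these values check the labels only weakly. The share of probes well above background was 60.8% to 79.5% per array in the morphant channel and 51.5% to 77.1% in the control channel. Among tested panel members these shares were 77.3% to 96.1% and 68.8% to 98.4%. Names matching the blastula markers SPAN, a secreted protease, and hatching enzyme covered 10 and 6 probes, of which 7 and 3 were above background on all arrays in both RNAs.

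The median ratio of the panel was close to that of all targets, and 5 members passed the test. The median log2 ratio of the 128 tested members was −0.02, with quartiles of −0.22 and 0.26 and a range of −2.46 to 1.62. The median over all 5481 tested targets was also −0.02, with quartiles of −0.28 and 0.18, both lower than those of the panel. A total of 62 members (48.4%) lay above 0, against 46.2% of all targets. The median size of a log2 ratio was 0.258 in the panel and 0.230 over all targets.

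At a limma adjusted p under 0.05, adjusted over all tested targets, 5 of 128 members were called (3.91%), and 5.00% of all targets were. Of these, 2 were higher (1.56%, against 2.96% of all targets) and 3 were lower (2.34%, against 2.04%). At an unadjusted p under 0.05 there were 45 members (35.2%, against 35.3% of all targets), 26 higher and 19 lower. A ratio of 1 sign in all 4 cultures was seen for 59 members (46.1%, against 44.3%), 32 above 0 and 27 below. A mean change of at least 2-fold was seen for 7 members (5.47%, against 5.49%). Most of these panel shares were close to the background, and the shares by direction rest on 2 and 3 genes.

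**Figure D1:**
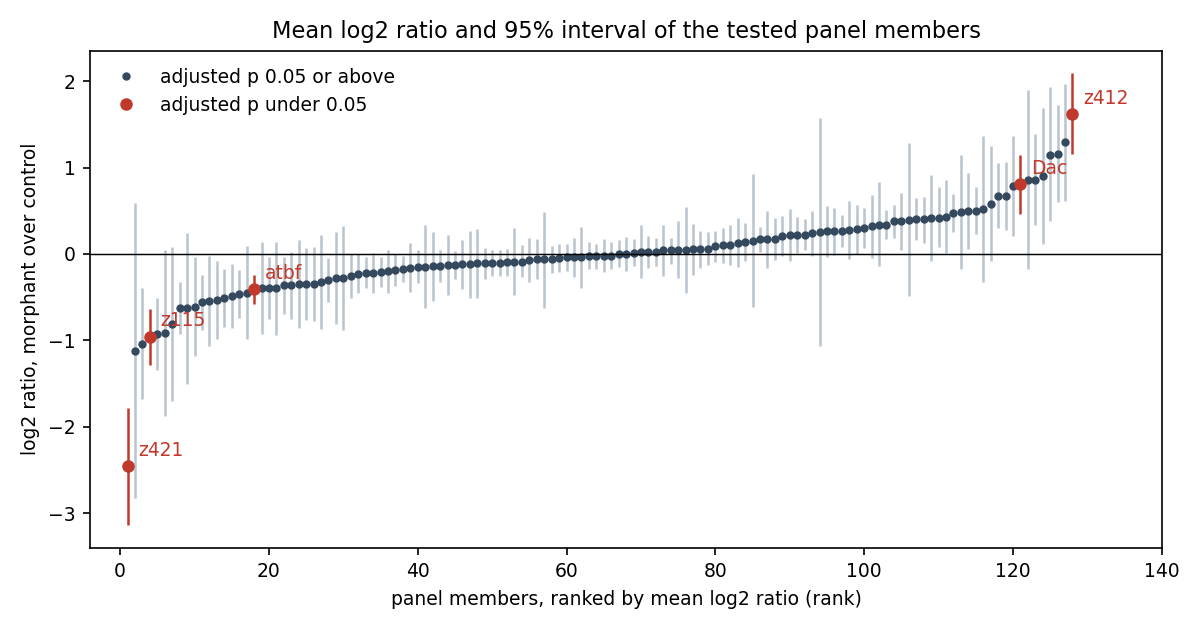
Mean log2 ratio of morphant over control (vertical axis) of the 128 tested panel members, ranked from lowest to highest (horizontal axis). Points are means over 4 cultures and lines are limma's 95% intervals; red marks the 5 members with an adjusted p under 0.05, from z421 at −2.46 to z412 at 1.62, and most other members lie close to 0.

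Of the 5 called members, z421, z115 and atbf fell and z412 and Dac rose. The z names stand for zinc finger proteins that carry only a number, and the files give no function for them. Zinc fingers are small folds held by a metal ion, many of which bind DNA.

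The lowest member of the panel was z421, with log2 ratios of −2.71, −3.21, −2.08 and −1.84 in cultures 1 to 4. All 4 cultures were far below the control, and the weakest of them was still at −1.84. The mean was −2.46 ± 0.62 (95% interval −3.14 to −1.78, limma adjusted p = 0.0273), which is 0.182 times the control level. Its other probe gave −1.76. Exchanging the dyes made little difference, with −2.51 with the morphant in Cy5 and −2.41 with the morphant in Cy3.

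The highest member was z412, at 1.05, 1.87, 1.98 and 1.57. Culture 1 was the lowest, and every culture was above a doubling of the control level. The mean was 1.62 ± 0.42 (95% interval 1.16 to 2.09, adjusted p = 0.0276), a 3.08-fold rise. Its other probe gave 1.46, so both probes of this gene were high.

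A further numbered zinc finger, z115, was at −1.15, −1.23, −0.80 and −0.67. Cultures 1 and 2 were lower than cultures 3 and 4, and none was near 0. The mean was −0.96 ± 0.27 (95% interval −1.29 to −0.64, adjusted p = 0.0346), or 0.513 times the control level, and the other probe gave −1.08.

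The remaining called genes were closer to the threshold, and each rests on 1 of its probes. Dac, the counterpart of dachshund, which acts in the fly with eye-determination genes, was at 0.49, 0.86, 1.18 and 0.70. The mean was 0.81 ± 0.29 (95% interval 0.46 to 1.15, adjusted p = 0.0458), a 1.75-fold rise. The other probe of Dac gave only 0.13. Its ratio was 1.36 from the scanner software and 0.47 for the mean of both probes.

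The gene atbf, whose counterpart in mammals encodes a large protein with both zinc fingers and homeodomains, was at −0.42, −0.52, −0.33 and −0.39. These values were small but close together, with a mean of −0.41 ± 0.08 (95% interval −0.58 to −0.24, adjusted p = 0.0458). The level was 0.750 times the control, and the other probe of atbf gave 0.02. The size of this ratio depended on the processing, with −0.79 at a normexp offset of 10, −1.43 from the scanner software's ratio and −0.20 for the mean of both probes.

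None of the 5 calls held with 1 of cultures 2, 3 or 4 left out. Without any 1 of these the panel had 0 calls by limma, and the array as a whole had 1, 0 and 0. At an unadjusted p under 0.05 there were 29, 33 and 29 of 128 members, beside 1213, 1219 and 1346 of 5481 targets. The ratios stayed close to their values, with z421 at −2.21, −2.59 and −2.67, z412 at 1.54, 1.5 and 1.64, and z115 at −0.87, −1.02 and −1.06. Without culture 1 there were 27 panel calls (21.1%, against 887 or 16.2% of all targets), among them all 5.

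Centring each array on its median in place of loess also left none of the 5 past the threshold. The ratios were then 2.19 for z412, 1.27 for Dac, −1.94 for z421, −0.31 for atbf and −0.38 for z115. That scaling moved the median of all targets to 0.10 and that of the panel to 0.16, and its calls over all targets were 49 higher and 7 lower, against 162 and 112. In the panel it called only L3mb GLEAN3_13689, a relative of the fly chromatin protein lethal (3) malignant brain tumor, which was at 0.42 ± 0.44 after loess (adjusted p = 0.183). A variance trend on the mean ratio with robust variances, an alternative chosen after seeing the data, gave 0 calls in the panel and 0 over all targets. At an unadjusted p under 0.05 it had 49 of 128 members and 2045 of 5481 targets. With the trend on array intensity there were 22 and 709 calls. All 5 kept their sign under every alternative in which they were tested.

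**Figure D2:**
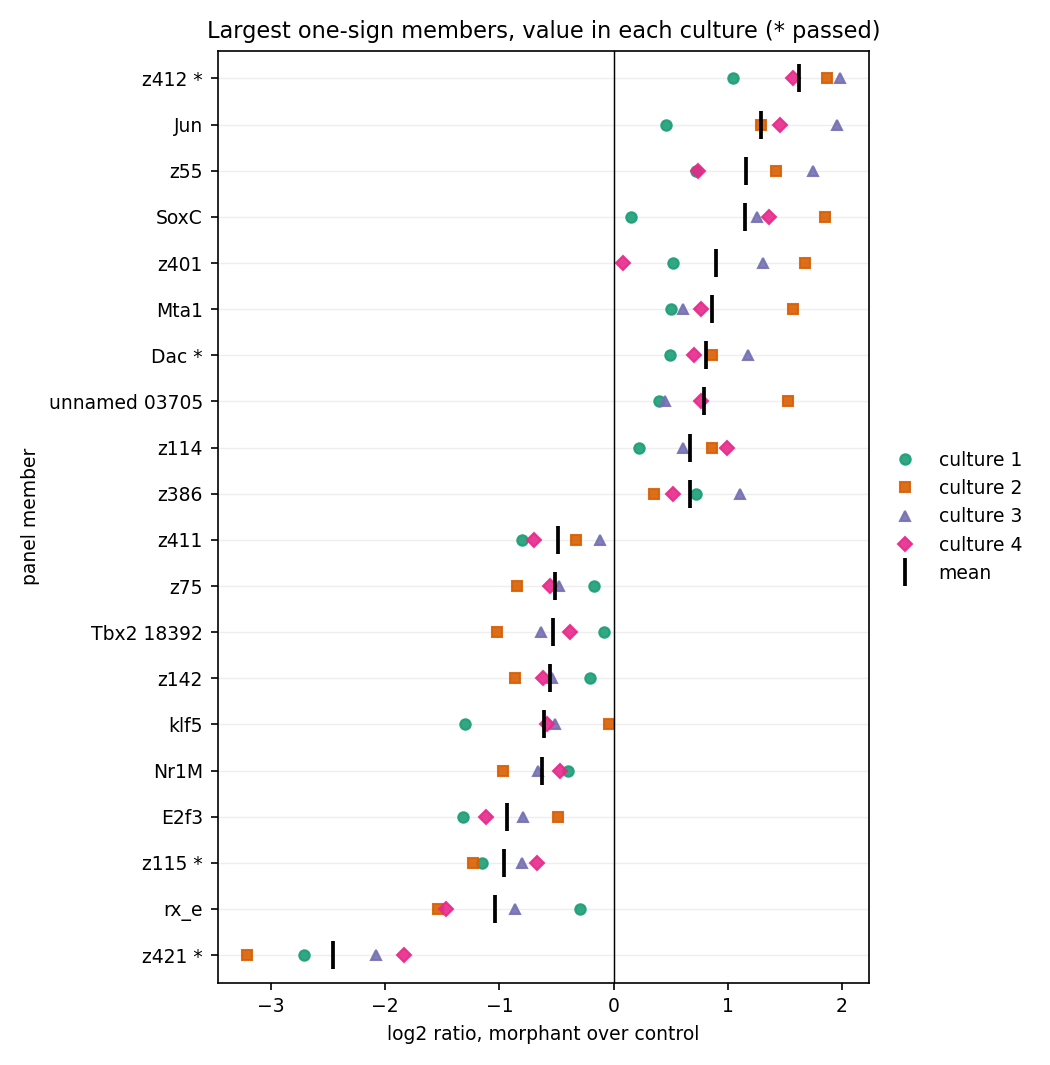
Log2 ratio of morphant over control (horizontal axis) in each of the 4 cultures for the 10 highest and 10 lowest panel members with 1 sign in all cultures. Coloured symbols are cultures, the black bar is the mean and an asterisk marks an adjusted p under 0.05; Jun, z55, SoxC and rx_e have large means but a wider spread between cultures than z412.

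Several members with large ratios lay just outside the threshold. Jun encodes a leucine zipper protein that forms the AP-1 complex and is transcribed in skeletogenic cells of the sea urchin. It was at 0.46, 1.29, 1.96 and 1.46, with a mean of 1.29 ± 0.63 (adjusted p = 0.0571), and its other probe was higher still at 2.02. All 4 cultures were above 0, with culture 1 lowest.

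The numbered zinc finger z55 was at 0.72, 1.42, 1.75 and 0.74, a mean of 1.16 ± 0.51 (adjusted p = 0.0539). Its other probe gave 1.27. SoxC, an HMG-box protein known in sea urchins from developing neurons, was at 0.15, 1.85, 1.26 and 1.36, a mean of 1.15 ± 0.72 (adjusted p = 0.0780). Culture 1 of SoxC was near the control and the others were more than doubled, while its other probe gave 0.24.

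Mta1, whose vertebrate counterpart belongs to a chromatin-remodelling and histone deacetylase complex, was at 0.50, 1.57, 0.61 and 0.77 (0.86 ± 0.48, adjusted p = 0.0685). The unnamed target GLEAN3_03705 had close values of 0.40, 1.53, 0.45 and 0.77 (0.79 ± 0.52, adjusted p = 0.0899). Its array name also carries the model number of Mta1, so these 2 targets may not be independent.

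On the low side, rx_e, a retinal homeobox gene of the apical plate, was at −0.29, −1.54, −0.86 and −1.47. The mean was −1.04 ± 0.58 (adjusted p = 0.0678) and the other probe also gave −1.04. E2f3, of the family that controls entry into DNA synthesis, was at −1.32, −0.49, −0.79 and −1.12. Its mean was −0.93 ± 0.37 (adjusted p = 0.0504) and the other probe gave −0.53. The nuclear receptor gene Nr1M was at −0.40, −0.97, −0.66 and −0.47, a mean of −0.63 ± 0.25 (adjusted p = 0.0539). All 3 were below 0 in every culture.

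These near misses moved across the threshold with the processing. Over 17 alternatives Jun, z55 and E2f3 each passed under 9, Nr1M under 7, SoxC and rx_e under 5 and Mta1 under 2. The called z421, z412 and z115 passed under 12 of 17, Dac under 9 of 17 and atbf under 8 of 16. Each of these 12 genes kept its sign in all of them.

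Sorted by class as read from their names, the numbered zinc fingers were the largest group. Of 64, 56 were tested, 1 rose (z412) and 2 fell (z421 and z115), which is 5.36%, against 5.00% of all targets. At an unadjusted p under 0.05 there were 24 (42.9%, against 35.3%). Their median log2 ratio was −0.05, beside −0.02 over all targets, with 26 above 0 (46.4%, against 46.2%) and 30 below. For the smaller classes that follow, a count at an unadjusted p under 0.05 stands beside the same 35.3% of all targets. Beyond those described, z388 was at 0.67, 0.33, 0.52 and 0.37, with a mean of 0.47 ± 0.15 (adjusted p = 0.0521). Among the largest ratios were also z401 at 0.90 ± 0.73, z114 at 0.67 ± 0.34 and z386 at 0.67 ± 0.33. On the low side were z142 at −0.56 ± 0.27, z75 at −0.51 ± 0.28 and z411 at −0.49 ± 0.32. None of these passed. Their other probes gave, in that order, 0.25, 0.56, 0.31, −0.17, 0.11 and −0.32, so that z75 turned in sign.

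Homeodomain genes, which include many regulators of cell identity along the body axes, had 17 of 24 members tested. Limma called 1 of the 17, the fall of atbf (5.88%, against 5.00% of all targets), and 16 were not called. At an unadjusted p under 0.05 there were 6 (35.3%, against 35.3%). The class median was −0.11, with 7 above 0 (41.2%, against 46.2%) and 10 below. After atbf, the smallest p belonged to Nkx3, at −0.20, −0.71, −0.55 and −0.38, with a mean of −0.46 ± 0.22 (adjusted p = 0.0652). The other probe of Nkx3 gave 0.02.

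Limma called 0 of the 14 tested zinc finger genes that carry a name, of 15 in all, and 3 had an unadjusted p under 0.05. The smallest p there belonged to spal at −0.22 ± 0.09 and yyi at 0.38 ± 0.27. The widest was krl, described with the cultures.

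The 6 tested basic helix-loop-helix genes, of 8, had 0 calls (3 at an unadjusted p under 0.05) and a median of −0.01. Usf, which binds E-box sequences, was close together at 0.24, 0.41, 0.38 and 0.33 (0.34 ± 0.08, adjusted p = 0.0544), but its other probe gave 0.03. E12, the general dimer partner of tissue-specific members of this class, was at 0.31, 0.36, 0.27 and 0.68, with a mean of 0.40 ± 0.19 (adjusted p = 0.0678) and 0.38 for the other probe. Both were above 0 in every culture.

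The 4 bZIP genes were all tested, and Jun at 1.29 stood apart from the other members, the highest of which was Creb at 0.14 ± 0.15. The 4 nuclear receptors had a median of −0.32, from Nr1H at −1.12 to Shr2 at 0.26 ± 0.21. Among E2F and Dp genes, E2f3 was at −0.93 and Dp1, the dimer partner of E2F proteins, at 0.32 ± 0.32. E2f4 had no settled sign, at 0.46, −0.62, 0.98 and −0.20, and its other probe gave −0.05. Limma called 0 of these 11 genes, with 1 at an unadjusted p under 0.05 in each class.

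The 6 Sox and HMG-box genes were all tested, with 0 calls (1 at an unadjusted p under 0.05, SoxC) and a median of 0.07. Without the saturated genes named next, the median of the remaining 4 was 0.19. Hmg2 and Soxb GLEAN3_22820 were saturated in the morphant channel on 7 and 5 of the 8 arrays. In these the dye orientations differed in sign, with 0.19 and −0.89 for Hmg2 and 0.31 and −1.01 for Soxb, so their means of −0.35 carry no direction. The other Soxb target, GLEAN3_25113, was at 0.21 ± 0.17.

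Of 5 tested Smad, Rel, NFAT and Mef2 genes, many of which answer signals from outside the cell, 0 were called and 0 had an unadjusted p under 0.05. The smallest p values among them were those of NFAT_ml at −0.36 ± 0.33 and Smad GLEAN3_04287 at 0.26 ± 0.23. The 4 tested chromatin cofactors of 7 had 0 calls (1 at an unadjusted p under 0.05, Mta1), and Mllt was at −0.19 ± 0.11. Names gave no class for 7 members, of which 5 were tested with 0 calls (1 at an unadjusted p under 0.05), from Lztf at −0.63 to GLEAN3_03705 at 0.79.

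**Figure D3:**
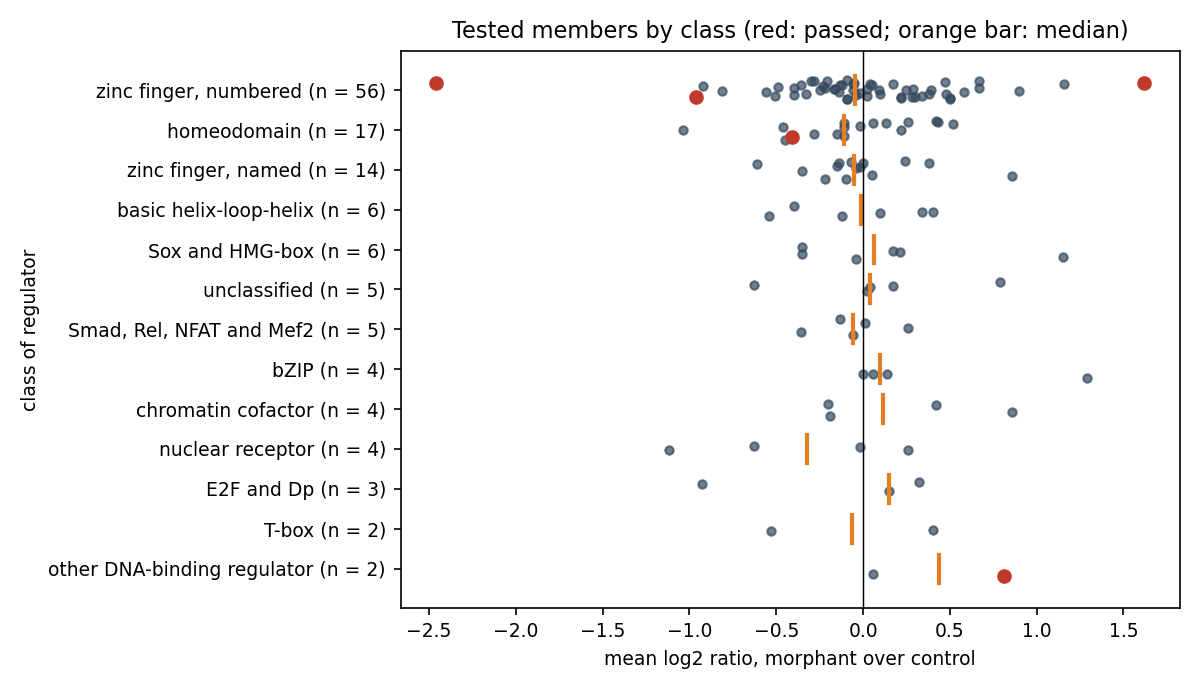
Mean log2 ratio of morphant over control (horizontal axis) of each tested panel member, by class of regulator (vertical axis). Each point is a gene, red points have an adjusted p under 0.05 and the orange bar is the class median; every class with 5 or more tested genes has members on both sides of 0.

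Members were also sorted by the embryonic territory in which such genes are known to act. Over all targets 5.00% were called, 35.3% had an unadjusted p under 0.05, 46.2% lay above 0 and 53.8% below, and with 1 to 7 tested genes a territory's counts are coarse beside these. Of 8 skeletogenic genes 6 were tested, with 0 calls, 3 at an unadjusted p under 0.05, 5 above 0 (83.3%) and a median of 0.31. Besides Jun, Tbr, a T-box activator of skeletogenic genes, was at 0.27, 0.70, 0.34 and 0.27, a mean of 0.40 ± 0.20 (adjusted p = 0.0766). Pmar, the repressor that starts this lineage, was at 0.42 ± 0.30 and Hex at 0.22 ± 0.24. Hes, a repressor acting downstream of Notch in many animals, was at 0.10 ± 0.17. The array name Hes does not say which gene of that family it is, so its placement here is uncertain, though it counts among the 5 above 0. The other probe of Pmar gave 0.02, and those of Hex and Hes gave 0.12 and 0.39. The lineage's central gene Alx1 was at −0.25, −0.06, −0.11 and −0.01, below 0 in every culture but by little, with a mean of −0.11 ± 0.10 (adjusted p = 0.300).

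The endoderm list had 3 of 4 members tested, with 1 rise, Dac, and the other members, krl and SoxC, at 0.86 ± 0.97 and 1.15 ± 0.72. Their median was 0.86. SoxC stands in this list although it is better known from neurons, and without it only Dac at 0.81 and krl remain.

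In the aboral ectoderm list 6 of 8 were tested, with 0 calls, 2 at an unadjusted p under 0.05 (33.3%), 5 below 0 (83.3%) and a median of −0.28. Tbx2 GLEAN3_18392, a T-box repressor, was at −0.08, −1.02, −0.64 and −0.38, with a mean of −0.53 ± 0.40 (adjusted p = 0.113), while its other probe did not pass the brightness filter. The Krüppel-like gene klf5 was at −0.61 ± 0.52, with 2 of its 8 spots left out as outliers. The other probe of klf5 had the opposite sign at 0.10, and the mean of both probes was −0.15. The gene klf1 was at 0.05 ± 0.44. Both klf genes stand in this list by the stem of their names alone, so their placement is uncertain. The counts and the median above include them, and klf5 is 1 of the 2 at an unadjusted p under 0.05. Hox7 GLEAN3_02634 was at −0.45 ± 0.49, and Hox7 GLEAN3_05170 and IrxA were dim and near 0 at −0.11 and −0.02.

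The neurogenic and apical plate list had 7 of 10 members tested, 0 called (3 at an unadjusted p under 0.05), 3 above 0 and a median of −0.02. After rx_e, the lowest were Nk2 at −0.28 ± 0.55 and Nkx2 at −0.11 ± 0.35. Their shortened array names lack the number that separates a neurogenic from an aboral ectoderm member of this group, so their placement is uncertain. At the other end Hbn, the homeobrain homeodomain gene, was at 0.39, −0.02, 0.87 and 0.48, with a mean of 0.43 ± 0.37 (adjusted p = 0.136). Mox at 0.06, zfh1 at 0.26 and fez at −0.02 complete the list.

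Maternal and pan-embryonic regulators were all tested (6 of 6), with 0 calls (2 at an unadjusted p under 0.05), 5 above 0 and a median of 0.19. Without the saturated Soxb GLEAN3_22820, the only one below 0, the median was 0.21. The shortened names of the Soxb targets lack the number that separates a maternal from a neurogenic member, so the placement of both is uncertain. Besides E12, Usf and the Soxb targets, Lef1, which carries β-catenin to DNA, was at 0.17 ± 0.19, and P3A2, a factor first purified from sea urchin embryos, at 0.06 ± 0.24. For the oral ectoderm 2 of 5 were tested, Not at 0.52 ± 0.78 and Hes at 0.10. There were 0 calls and 0 at an unadjusted p under 0.05. The other probe of Not had the opposite sign at −0.06, and that of Hes gave 0.39. Not was also the only tested member placed in the non-skeletogenic mesoderm.

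Many members differed between the cultures by more than the 2 arrays of a culture did. In an F test over the 8 arrays with a term for the dye, 87 of 128 members passed (68.0%, against 61.5% of all targets). The error of that test is technical only, since both arrays of a culture carry the same RNAs. The widest was the nuclear receptor gene Nr1H, at 0.30, −3.41, −0.84 and −0.51. Its mean of −1.12 ± 1.60 was not called (limma adjusted p = 0.27), while its cultures differed (limma F test, adjusted p = 1.91e-08). Culture 2 of Nr1H was the lowest value of any tested member in any culture, and its other probe averaged only −0.25.

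The numbered zinc finger z450 was high in culture 1 alone, at 2.07, −0.19, −0.18 and −0.68. The Krüppel-like gene krl, a repressor that acts early in the vegetal region of the sea urchin embryo, was at −0.46, 1.35, 1.76 and 0.78. Cultures 2 to 4 were above the control and culture 1 below it. Without culture 1, krl was at 1.30 and was called (adjusted p = 0.0434), whereas z450 then turned to −0.35.

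Culture 1 also stood alone for z67, at 0.23, −1.93, −1.06 and −0.92, and for z193, at 0.32, −1.62, −0.77 and −1.16. Both were above the control there and below it in cultures 2 to 4. Lztf, a leucine zipper gene by its name, split otherwise, at 0.11, −1.25, −1.40 and 0.02, with cultures 2 and 3 low and cultures 1 and 4 near the control.

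**Figure D4:**
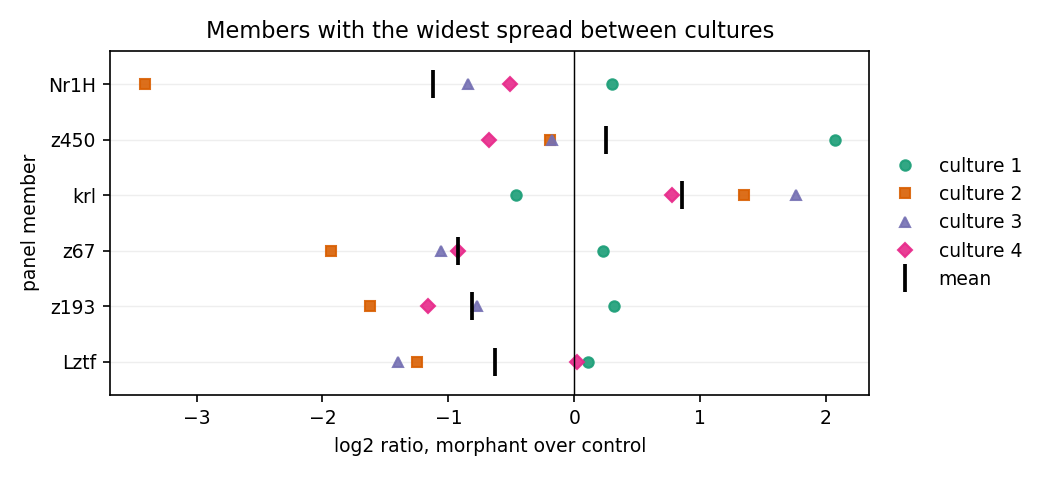
Log2 ratio of morphant over control (horizontal axis) in each of the 4 cultures for the panel members with the widest spread between cultures. Coloured symbols are cultures and the black bar is the mean; culture 1 lies on the other side of 0 from cultures 2 to 4 for Nr1H, z450, krl, z67 and z193.

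Over the panel, culture 1 was alone in sign against the other cultures for 31 members (24.2%, against 19.4% of all targets). Culture 2 was alone for 6 (4.69%, against 5.29%), culture 3 for 9 (7.03%, against 6.61%) and culture 4 for 8 (6.25%, against 8.92%). The median size of a log2 ratio was 0.198 in culture 1, 0.327 in culture 2, 0.288 in culture 3 and 0.260 in culture 4. Over all targets these were 0.181, 0.337, 0.294 and 0.234, so culture 1 had the smallest ratios and culture 2 the largest in the panel and over the whole array. The largest ratio of a member came from culture 2 for 55 members (43.0%, against 41.6% of all targets) and from culture 4 for 14 (10.9%, against 16.1%).

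Both probes were kept for 102 of the 128 members, and their mean log2 ratios correlated at 0.806 across genes, beside 0.753 over all targets. Genes are not independent replicates, and both probes share the same arrays. For 22 of the 102 (21.6%, against 21.3% of all targets) the second probe had the opposite sign. The difference between probes was largest for SoxC (1.15 and 0.24), z67 (−0.92 and −0.04), z258 (−0.33 and 0.54), Nr1H (−1.12 and −0.25) and z417 (−0.40 and 0.42). Of these, z258 and z417 turned in sign. Probe positions were not used here, so probes of different exons or transcripts are not separated.

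**Figure D5:**
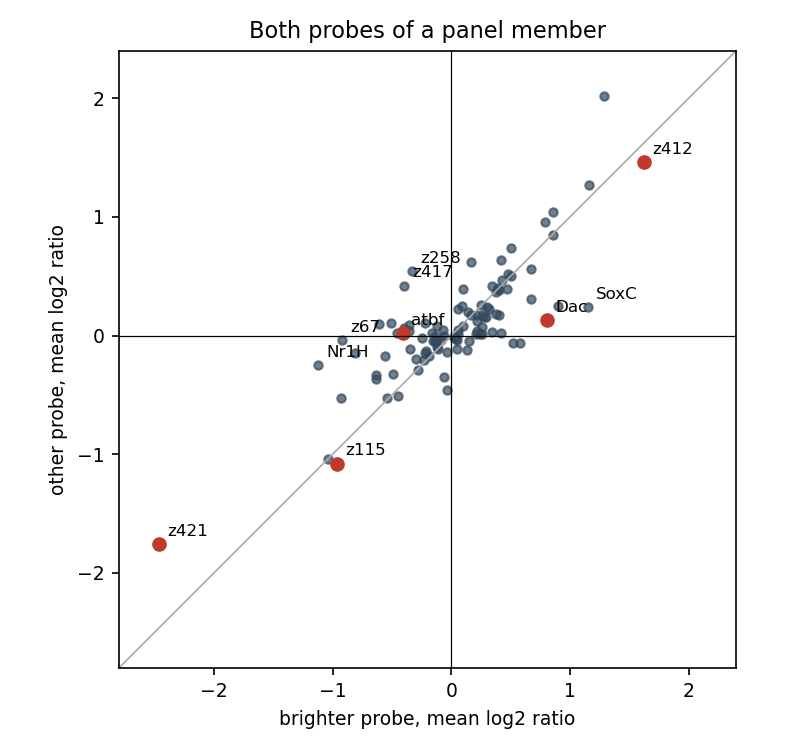
Mean log2 ratio of morphant over control from the brighter probe (horizontal axis) and from the other kept probe (vertical axis) for the 102 panel members with both kept. Each point is a gene, red points have an adjusted p under 0.05 and the grey line marks equal values. Of the red points, z115 and z412 lie near the line, and Dac and atbf lie near 0 on the vertical axis. The point of z421 is low on both axes but off the line, at −2.46 and −1.76.

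The 25 members that were not tested had no probe well above background on at least 4 of the 8 arrays. They were Ac-s, Af9, Alx4, Ato, Cutl, Dlx, L3mb GLEAN3_21123, Mbx1, Mll3, Rab2, Tbx2 GLEAN3_23386, Tgif, dead, gsc, lox, zic2, unnamed GLEAN3_19002 and z28, z74, z77, z86, z89, z111, z167 and z192. Among them are the oral ectoderm gene goosecoid (gsc) and the proneural genes achaete-scute (Ac-s) and atonal (Ato). In 7 of the 25 no array was above background, which does not show that they were not transcribed. The others were above background on 1 to 3 arrays and missed the filter.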

How the data were processed

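The 8 scans were read by Agilent Feature Extraction in version 10.7.1.1, as the submitters' processing notes and the file headers say. RNA was amplified from oligo dT, per the labels' protocols. Per the file headers, the deposited scanner files give the mean intensity of each spot and the median intensity of its surroundings in both channels, and the scanner software's log10 ratio of Cy5 over Cy3. A further table that the authors deposited holds log2 ratios, whose making is not given in the sources used here. Its columns correlated at 0.972 to 0.991 with the ratios computed here, all in the direction of morphant over control, with medians of 0.000503 to 0.0248, so its centring is near 0.

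Computation used R 4.3.3, the packages limma (3.58.1) and data.table (version 1.17.8). Mean signals were background-corrected (normexp, offset 50) and loess-normalized within each array with 536 control spots at weight 0. Outlier spots, 0 to 32 per array, were left out. A loess ratio is relative to other genes of that brightness. A probe was kept if 4 or more arrays showed it well above background in a channel, which left 9563 of 12696, and the brightest represented its target. Limma's moderated test (lmFit, eBayes) compared means with 0, with Benjamini-Hochberg adjustment. Dye orientation and slide column coincide and cannot be told apart. The tests were checked on simulated data. The number of arrays limits the precision. Promoter sequences were not used here, so a count of Runt motifs was not run.

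The panel, lists, tests and alternatives were chosen with earlier results of these data known. Classes were read from the array's shortened names, which were not matched to RefSeq. The text names called members, the 10 highest and 10 lowest of 1 sign, the 2 smallest p values per class, all territory members, and the widest by culture or probe. E2f4, L3mb, Hmg2 and z388 fall outside that rule and were chosen after their values were seen.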

Additional observations from a re-analysis of the deposited data

Results flagged for a closer look

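In 3 of the 60 named members 1 culture lay apart from the other cultures by more than Dixon's 95% critical value for 4 samples. Over all 128 tested members there were 10. Chance marks about 1 in 20 such groups. Tbr was at 0.70 in culture 2 and between 0.27 and 0.34 in the others. The gene zfh1 was at 0.43 in culture 3 and at 0.21 in each other culture. Its 2 arrays of a culture lay apart, at 0.04 and 0.39 in culture 1, 0.55 and 0.31 in culture 3 and 0.38 and 0.04 in culture 4. Culture 2 was at 0.14 and 0.27. The cultures of zfh1 did not differ by the limma F test (adjusted p = 0.499), and its other probe gave 0.01. The gene fez was at −0.06 in culture 2 and at −0.02, −0.01 and −0.01 in the others, a gap too small to carry meaning for a dim gene. The part of a single sample in these values was not tested.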

How the results depend on the processing

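Against 5 panel calls and 274 over all targets, other settings gave 18 and 648 (normexp offset 10), 24 and 839 (the scanner software's log ratio), 1 and 56 (median centring), 8 and 448 (above background in both channels on all arrays), 14 and 581 (the authors' table), 27 and 1269 (8 arrays with culture as a random block), 22 and 709 (trend on array intensity and robust variances), 0 and 0 (trend on the mean ratio and robust variances, chosen after seeing the data) and 27 and 1224 (adjusted p under 0.10). The filter for signal above background in both channels on all arrays left only 80 members and 3668 targets to test. Its 8 and 448 calls are counted from these. The other settings listed so far tested 128 members and 5481 targets. With the morphant in Cy3 only the panel had 9 (7.03%, against 7.33% of all targets). These 9 include the saturated Hmg2 and Soxb GLEAN3_22820, whose sign differed between the dye orientations. Without a filter the panel had 4 (2.61%) and all targets had 180 (2.81%). In the panel, 16 of the 24 calls from the scanner ratio and 10 of the 18 with offset 10 were higher. Most calls over all targets were also higher under both of these settings, so this lean was not particular to the panel. Leaving out 1 culture gave 0 to 27 panel calls and 0 to 887 over all targets. Unsubtracted signals, or averaging the kept probes, left both counts within 1.5 times, and the culture test did so under all 8 settings it was run with. The panel median was −0.0739 with the scanner ratio, 0.162 with median centring and −0.0593 with the stricter filter. Over all targets it was −0.11, 0.10 and −0.10. With the morphant in Cy5 or Cy3 only the panel median was 0.0127 and −0.00233, and that of all targets −0.03 and −0.02. Signs turned with median centring for z411 (0.08), NFAT_ml (0.15), z258 (0.21), z417 (0.16), Nk2 (0.09) and Soxb GLEAN3_22820 (0.08), and with the probe mean for z258 (0.11) and z417 (0.01). Soxb GLEAN3_22820 was at 0.31 with the morphant in Cy5 only, and Nkx2 and klf1 at 0.03 and −0.01 with it in Cy3 only. With 1 culture left out, z450 ranged from −0.35 (without culture 1) to 0.56, klf1 from −0.06 (without culture 3; −0.02 without culture 2) to 0.27, P3A2 from −0.06 (without culture 3) to 0.12 and IrxA from −0.04 to 0.01 (without culture 3). For fez the value was 0 with unsubtracted signals, 0.05 with the scanner ratio and 0.02 in the authors' table. The causes were not tested. With 4 cultures and 1 control pool, calls near the threshold depend on single samples, and ratios of dim probes are drawn toward 0 by the offset.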
